A study of Zea mays with 12 samples.

Results

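The genes pht1, PAPhy and NAR2.2 of the maize kernel stand for 3 points at which phosphate and nitrate are handled: a phosphate transporter, an enzyme that frees phosphate from its storage form, and a partner protein of nitrate transporters. They were chosen by gene ID, as 3 of the 39423 gene models of the table, with their FPKM in these libraries already known. FPKM is a count of sequenced fragments scaled by transcript length and by the mapped fragments of the library. Every tissue and age difference of the 3 genes below is therefore a description, and no test is given for it. Of the 39423 models, 24213 reached an FPKM of 1 in 2 or more libraries and were fitted, and all 3 genes were among them. NAR2.2 passed that filter through a single group, the maternal zone at 8 days.

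The RNA-seq libraries came from wild-type kernels of the W22 inbred, grown in the field, with no treatment named. One tissue, the basal endosperm transfer layer (BETL), is filial and takes nutrients up, and the other, on the mother's side, is the maternal transfer zone (MATZ). Each was dissected frozen at 3 ages, 8, 14 and 20 days post pollination (DAP), and each of these 6 groups has 2 of the 12 libraries. Whether replicates are separate plants is not said in the labels, and their spread may be technical only.

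PHT1 proteins are plasma membrane carriers that move phosphate into cells together with protons, as shown in Arabidopsis and rice. Phytases such as PAPhy, which belong to the purple acid phosphatases, release phosphate from phytate, the main phosphorus store of cereal seeds. NAR2 proteins are small membrane proteins that NRT2 nitrate transporters need for high-affinity uptake, as shown in Arabidopsis and barley. In the filling kernel, phosphate and nitrogen leave the maternal tissue and enter the endosperm across the boundary that these samples cover.

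The deposited table places pht1 (GRMZM2G326707) on chromosome 5, 31880969 to 31883167, on the forward strand. PAPhy (GRMZM2G134054) lies on chromosome 1, 298073543 to 298076209, on the reverse strand. NAR2.2 (GRMZM2G163494) lies on chromosome 2, 37329548 to 37331367, also on the reverse strand. The build of these coordinates is not given in the sources used here. The span of NAR2.2 overlaps by 96 bp the gene model GRMZM2G163471 (37325095 to 37329643), which lies on the opposite strand. Whether strand was used in quantification is not given, so fragments in the overlap cannot be assigned with certainty. That neighbour was above 0 in all 12 libraries, at 4.46 and 9.53 FPKM in the MATZ libraries of 8 DAP and between 3.30 and 24.1 FPKM in the other 10, so its levels did not follow those of NAR2.2.

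The tissues carried their defining transcripts. Summed FPKM of the 9 BETL markers ran from 41903 to 91419 in BETL libraries and from 2226 to 11513 in MATZ libraries, where tcrr-1 was at 0 at 8 DAP. Of the 6 maternal MADS-box models, 4 were above 0 in each group and 2 were at 0 in all 12 libraries, and their sum ran from 93.2 to 346 in BETL and from 574 to 1135 in MATZ. Both tissues thus held transcripts that mark the other. Multiplied by the genomic span of the model, low values fell on regular steps. They would do so if 1 step were 1 fragment, which is an inference. The level of 1 step differed between libraries, and 9 of the 12 had 2 steps and 3 had 1. No fragment counts are used here, and an exact 0 is given only as a listed value.

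The phosphate transporter gene pht1 was a transcript of the early maternal zone. In MATZ at 8 DAP it stood at 142 and 83.4 FPKM in the 2 libraries, a mean of 113 ± 41.5 (SD, n = 2). By 14 DAP the MATZ values were 7.68 and 11.4, and by 20 DAP 3.23 and 9.85. The BETL libraries listed 0 and 9.52 FPKM at the first age, 4.59 and 0 at the second, and 0 in both at the last. Both early MATZ libraries were above all other 10 libraries, and the lower of them was far above the next highest value, that of MATZ 14 DAP replicate 2. In bulk samples, fewer cells of a type and less RNA per cell cannot be told apart.

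In MATZ the mean of pht1 was 11.8-fold lower at 14 than at 8 DAP, a difference of −3.41 on the log2(FPKM + 1) scale. That scale understates changes of low genes. The 2 libraries of 8 DAP did not overlap those of 14 DAP, as held for 40.8% of all tested genes in this comparison, whereas the libraries of 14 and 20 DAP overlapped. BETL libraries of 8 DAP lay below those of MATZ (38.9% of tested genes did not overlap between tissues at that age). Mean FPKM was 23.7-fold higher in MATZ there, with BETL replicates of 0 and 9.52, and the log2 difference (BETL minus MATZ) was −5.08. Without BETL 8 DAP replicate 1, the library listed at 0, it was −3.39, and without replicate 2 it was −6.78. By the value steps read below, that 0 does not exclude a level like that of replicate 2. At 14 DAP the log2 difference was −2.13, again with no overlap between tissues (43.8% of tested genes), but it was −0.89 without BETL 14 DAP replicate 2 and −3.37 without BETL 14 DAP replicate 1. Within BETL the change from 8 to 14 DAP had no settled direction, at −0.46 with all libraries and at 1.24 without BETL 8 DAP replicate 2.

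By rank, pht1 was the 734th and the 1389th most abundant of the 39423 gene models in the 2 MATZ libraries of 8 DAP. In the other 6 libraries where it was above 0, its ranks ran from 6739 to 15551. In order of mean level, MATZ at 8 DAP came first, followed by the later MATZ groups and then by the BETL groups, each in order of age. Below the first place, each neighbour in that order overlapped the next. Groups farther apart did not all overlap. MATZ at 14 DAP lay above BETL at 14 and 20 DAP, and MATZ at 20 DAP above BETL at 20 DAP. Of tested genes, 43.8% had tissues that did not overlap at 14 DAP and 53.5% at 20 DAP. The share for MATZ at 14 DAP against BETL at 20 DAP was not counted.

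**Figure D1:**
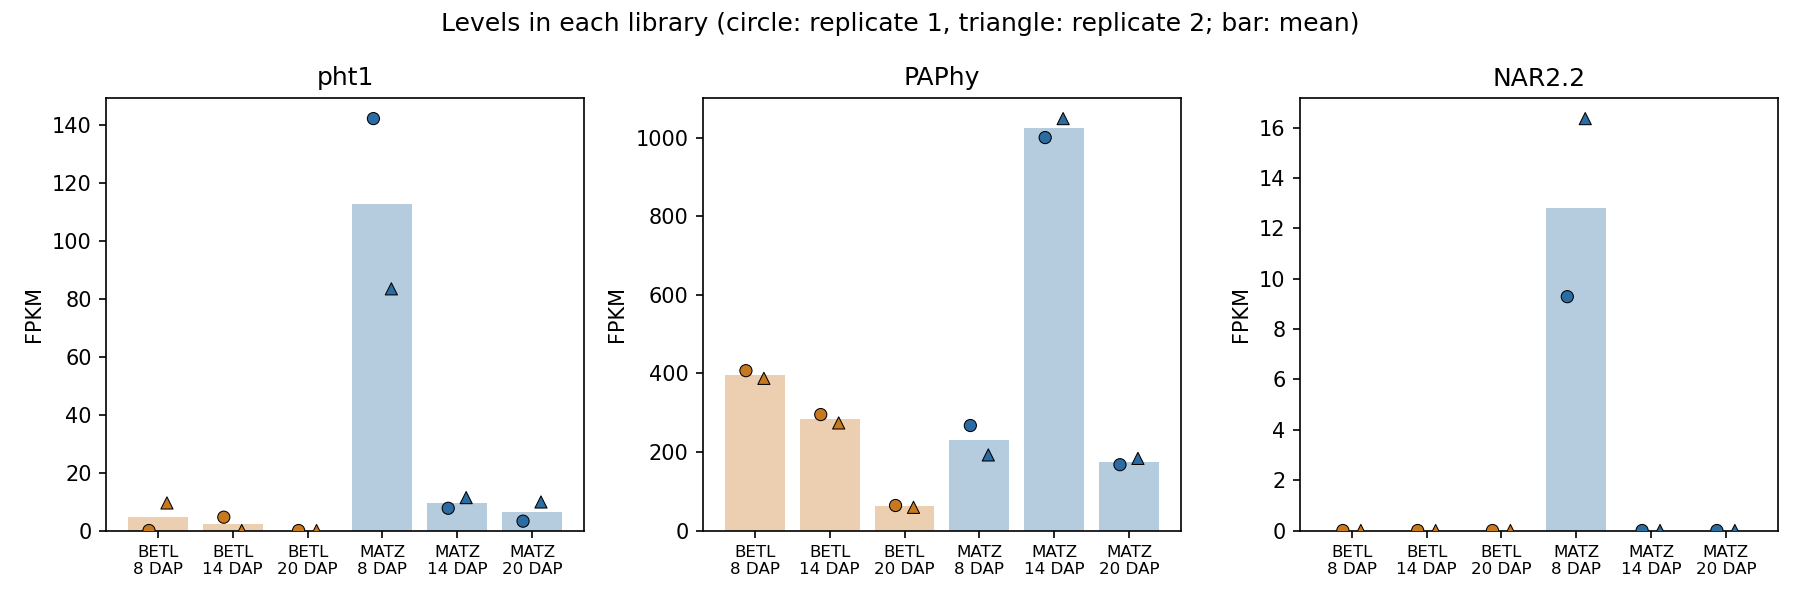
FPKM of pht1, PAPhy and NAR2.2 (y axis, a separate linear scale from 0 in each panel) in BETL (orange) and MATZ (blue) at 8, 14 and 20 DAP; circles are replicate 1, triangles replicate 2 and bars the mean of 2 libraries. PAPhy peaked in MATZ at 14 DAP at 1000.4 and 1049 FPKM, while pht1 and NAR2.2 had their highest values in MATZ at 8 DAP.

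The phytase gene PAPhy was abundant in both tissues and had its highest level in the maternal zone at 14 DAP. Its MATZ values were 267 and 192 FPKM at 8 DAP, then 1000.4 and 1049 at 14 DAP, then 168 and 184 at 20 DAP. The BETL libraries held 407 and 387 FPKM at the first age, 295 and 274 at the second, and 63.7 and 59.0 at the last. The BETL level was lower at each later age, whereas the MATZ level was highest at the middle age. PAPhy was the 60th and 62nd most abundant gene model in the MATZ libraries of 14 DAP, the 188th and 195th in BETL at 8 DAP, and only the 1488th and 1598th in BETL at 20 DAP.

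Replicates of PAPhy lay close together. Means were 1025 ± 34.2 in MATZ at 14 DAP, 397 ± 13.8 in BETL at 8 DAP and 285 ± 15 in BETL at 14 DAP (SD, n = 2). They were 230 ± 52.9 in MATZ at 8 DAP, 176 ± 11.4 in MATZ at 20 DAP and 61.4 ± 3.27 in BETL at 20 DAP. In this order, set by the means themselves, each group of PAPhy lay wholly above the next in the deposited FPKM. How many tested genes separate all 6 groups in this way was not counted. Among the single comparisons, groups did not overlap for between 34.1% (MATZ, 14 to 20 DAP) and 53.5% (tissues at 20 DAP) of tested genes. The narrowest gap was between BETL at 14 DAP, with a lower value of 274, and MATZ at 8 DAP, with an upper value of 267. This gap did not survive median-of-ratios scaling, which divides each library by a factor. The factors were 1.089 for that BETL library and 0.9305 for that MATZ library. Divided by them, the MATZ value is the higher, and these groups overlap.

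The tissue with more PAPhy transcript differed between ages. At 8 DAP its mean was 1.73-fold higher in BETL (log2 difference 0.81). At 14 DAP it was 3.60-fold higher in MATZ (log2 difference −1.85), and at 20 DAP 2.86-fold higher in MATZ (−1.50). Of all tested genes, 53.5% also had tissues that did not overlap at 20 DAP. The size of the last difference depended on scaling, and was −1.11 with median-of-ratios scaling and −0.86 with quantile normalization. Its direction, like that of the other PAPhy differences given here, was the same in all 20 alternatives.

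Over time, PAPhy in MATZ was 4.46-fold higher at 14 than at 8 DAP (log2 change 2.17), then 5.83-fold lower at 20 DAP (−2.54). BETL libraries did not overlap between 8 and 14 DAP, as held for 46.7% of tested genes, and the mean was 1.4-fold lower at 14 DAP (log2 change −0.48). The median log2 change of all tested genes was 0.75 there. With median-of-ratios scaling the PAPhy change was −1.05 and that median 0.44. The BETL mean was a further 4.64-fold lower at 20 DAP (log2 change −2.20). The libraries of 14 and 20 DAP did not overlap in either tissue, which held for 38.9% of tested genes in BETL and 34.1% in MATZ.

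Transcripts of the starchy endosperm moved with PAPhy in part. The zein storage protein genes, 26 in this list, summed to 11709 and 11359 FPKM in the MATZ libraries of 14 DAP and to 4324 and 4449 in those of BETL. At 8 DAP the sum was 52.4 and 81.1 in MATZ and 84.0 and 74.3 in BETL, where PAPhy was already at 407 and 387 FPKM. At 20 DAP it was 857 and 1204 in MATZ and 1550.3 and 1499 in BETL. Of the 26 genes, 11, 24 and 21 were above 0 in at least 1 MATZ library at the successive ages, against 8, 22 and 24 in BETL. At 8 DAP the alpha zein models z1A1_3 and z1A2_1 were at 0 in all libraries, but others were not. The alpha zein z1C1_4 was at 10.1 FPKM in BETL replicate 2 and at 2.79 in MATZ replicate 1 of that age. The gamma zein gz27 was at 25.7 and 31.7 in BETL and at 4.64 and 9.64 in MATZ. Zeins and PAPhy thus both peaked in MATZ at 14 DAP, but in BETL the zein sum was higher at 14 than at 8 DAP and the PAPhy level lower. Within MATZ, sums of the embryo and vascular lists were also highest at 14 DAP. The 5 embryo markers summed there to 147 and 132 FPKM, against 0 and 11.7 at 8 DAP and 64.2 and 104 at 20 DAP. Of the 5, 3, 2 and 4 were above 0 in at least 1 library. The 3 vascular markers were each above 0 in at least 1 MATZ library of each age. They summed to 157 and 127 FPKM, against 29.0 and 18.5 at 8 DAP and 65.7 and 68.1 at 20 DAP. Of these, sut1 was higher in BETL, with means of 65.0, 233 and 161 FPKM against 13.7, 89.9 and 36.7 in MATZ. The marker kn1 was at 0 in all BETL libraries. The embryo and vascular sums were likewise highest at 14 DAP in BETL, with means of 691 and 261 FPKM. They were 17.0 and 72.8 at 8 DAP and 506 and 174 at 20 DAP. From 14 to 20 DAP in BETL, the mean of ole1 went from 446 to 170 FPKM, but that of glb3 from 197 to 284. The embryo marker glb2 was above 0 in BETL only at 20 DAP. Most of the vascular sum in BETL was sut1. At 14 DAP the MATZ means of the embryo and vascular sums were lower, at 139 and 142 FPKM. The part of zein-bearing, embryo or vascular cells in the MATZ level of PAPhy was not tested. The BETL marker sum in MATZ was 2226 and 2883 at the first age, 7270.0 and 6658 at the second and 11513 and 10173 at the last. This sum had no peak at 14 DAP, but its genes differed. In MATZ bap2 had means of 435, 622 and 326 FPKM and MEG1 of 56.8, 98.2 and 8.47, both highest at 14 DAP. There mn1 was highest at 8 DAP and the other BETL markers at 20 DAP. The part of BETL cells in the MATZ level of PAPhy was not tested either.

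**Figure D2:**
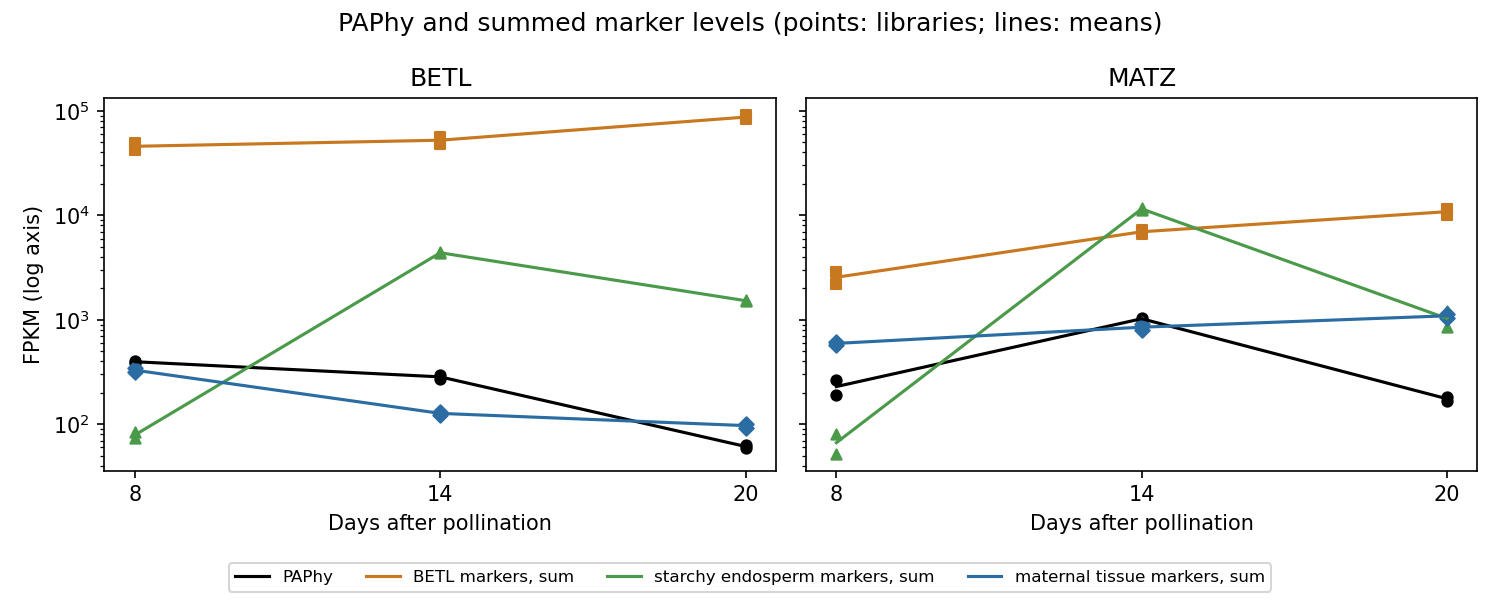
FPKM on a log axis against days after pollination for PAPhy and for the summed BETL, starchy endosperm and maternal tissue markers, in BETL (left) and MATZ (right); points are libraries and lines join the means of 2 libraries. In MATZ PAPhy and the zein sum were both highest at 14 DAP, while in BETL PAPhy went from 397 to 285 FPKM as the zein sum went from 79.2 to 4386.

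The nitrate transport partner gene NAR2.2 was listed above 0 only in the early maternal zone. Its values in MATZ at 8 DAP were 9.29 and 16.4 FPKM, and it was listed at 0 in the other 10 libraries. This was the pattern of 247 of the tested genes, NAR2.2 included, or 1.02%. With every other group at 0, no fold is given.

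The low level of NAR2.2 sets how far the zeros can be read. If 1 step is 1 fragment, its value in MATZ 8 DAP replicate 1 corresponds to between 4.12 and 5.86 fragments and that in replicate 2 to 4.83. Under the same reading, 3 fragments, the number that a count of 0 allows, correspond to between 3.31 FPKM in BETL 20 DAP replicate 1 and 17.5 FPKM in MATZ 20 DAP replicate 2. In 4 of the 10 libraries at 0 this limit lies above 12.8, the mean of the 2 values, so the listed 0 does not exclude a level like that of 8 DAP there. In 5 of the 10 it lies below both values, among them both BETL libraries of 20 DAP (3.31 and 3.81) and MATZ 20 DAP replicate 1 (6.41). In MATZ at 14 DAP the limits were 10.2 and 17.3 FPKM, so that both lie above the lower of the 2 values of 8 DAP. These limits cover counting error only. They use the genomic span, introns included, whereas FPKM is scaled by transcript length. If NAR2.2 is spliced, its fragments are fewer and its limits higher than given. Fewer than 5 of the 10 libraries may then have a limit below both values.

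For pht1, the same reading by genomic span gives 76.2 and 29.7 fragments with the larger step in the 2 MATZ libraries of 8 DAP. Its value in BETL 14 DAP replicate 1 equals 1.0 of the larger step of that library. In 5 of the 8 libraries where pht1 was above 0, its value did not exceed 3 larger steps, so its lower levels rest on few fragments. In BETL 8 DAP replicate 1, where pht1 was listed at 0, 3 larger steps correspond to 13.6 FPKM. That lies above the 9.52 FPKM of replicate 2. In the other libraries where pht1 was at 0, this level ran from 2.74 to 3.99 FPKM. By genomic span, PAPhy corresponded to at least 46.1 steps in each library.

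**Figure D3:**
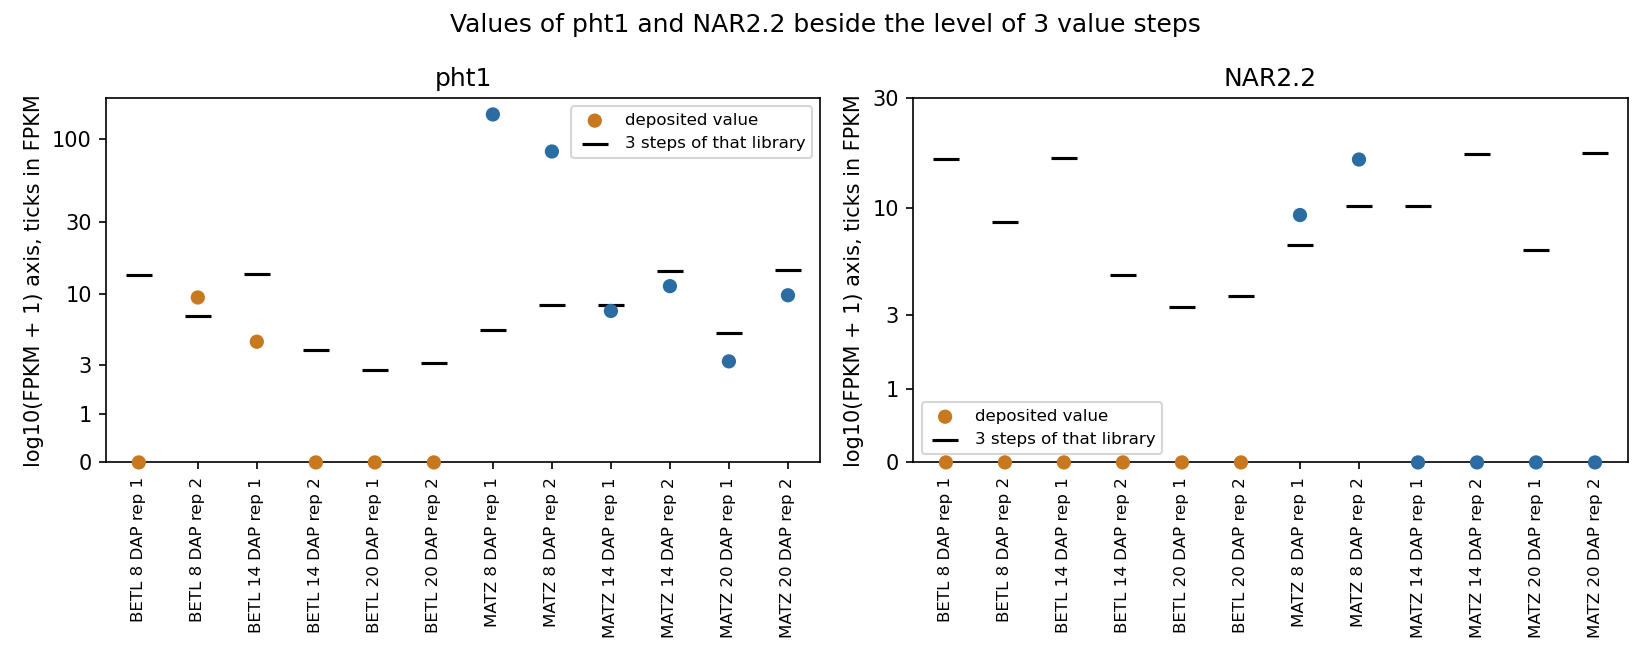
Deposited FPKM of pht1 (left) and NAR2.2 (right) in the 12 libraries (points; BETL orange, MATZ blue), on an axis of log10(FPKM + 1) with ticks in FPKM; black dashes give the level of 3 value steps in that library. The pht1 values of MATZ at 8 DAP (142 and 83.4) lie far above the dashes, whereas the NAR2.2 values (9.29 and 16.4) lie just above theirs and under the dashes of several libraries at 0. Dashes use the genomic span of the model, introns included.

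Across the 12 libraries, log2(FPKM + 1) of pht1 and NAR2.2 had Pearson r = 0.78 and Spearman rho = 0.65, and both were highest in MATZ at 8 DAP. PAPhy had r = 0.32 with pht1 and −0.07 with NAR2.2. The libraries share groups and differ in depth, so these values only describe the patterns. Genes with patterns most like each of the 3 were then sought among the 14774 tested genes whose highest group mean was at least 10 FPKM.

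For pht1 the closest gene was GRMZM2G457309, with r = 0.96 (rho = 0.95), at a mean of 236 FPKM in MATZ at 8 DAP, 55.6 at 14 DAP and 12.5 at 20 DAP. Its BETL means were 12.9 FPKM at 8 DAP and 3.92 at 14 DAP. The closest genes with a descriptive name were GAPC2, named for cytosolic glyceraldehyde-3-phosphate dehydrogenase (r = 0.87, rho = 0.64), and BX3, named for a cytochrome P450 of benzoxazinoid synthesis (r = 0.86, rho = 0.85). BX3 had means of 405 FPKM in MATZ at 8 DAP, 133 at 14 DAP and 34.2 at 20 DAP, and GAPC2 means of 1077, 314 and 292. PINY (r = 0.86), core3ft (0.83) and GAPC (0.83) followed. In MATZ these 3 fell less from 8 to 14 DAP than pht1 did. Their means at the successive ages were 27.6, 21.9 and 14.6 FPKM for PINY, 10.6, 9.48 and 10.2 for core3ft, and 518, 505 and 205 for GAPC.

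For PAPhy the highest r, 0.95 (rho = 0.90), was that of GRMZM2G436295 and GRMZM5G843352, a pair of models on chromosome 3 with nearly the same values, whose mean was 448 FPKM in MATZ at 14 DAP. The next was GH3, a name used for auxin-conjugating enzymes (r = 0.94, rho = 0.73). GH3 stood at 1362 FPKM in MATZ at 14 DAP, against 307 at 8 DAP and 496 at 20 DAP, and at 539, 359.6 and 98.8 at the 3 ages in BETL. The bZIP transcription factor gene bZip112 (r = 0.90, rho = 0.91), AAE (0.87), ACR4 (0.87) and the beta-expansin gene expB3 (0.86) were the other named genes. Each of the named genes had its highest mean in MATZ at 14 DAP, as PAPhy did, and its lowest in BETL at 20 DAP. Their selection by likeness to PAPhy in these libraries favours such a match, so it is no separate result.

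For NAR2.2 the measure rests on 2 libraries above 0. ACO and YAB3, a gene named for the YABBY transcription factors, had r = 1.0 and the thaumatin-like gene PR-5 also had r = 1.0, each at 0 outside MATZ at 8 DAP with means of 10.3, 12.4 and 10.6 FPKM there. GAPC2 was among the 5 named genes closest to NAR2.2 (r = 0.94, rho = 0.64) as well as to pht1.

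**Figure D4:**
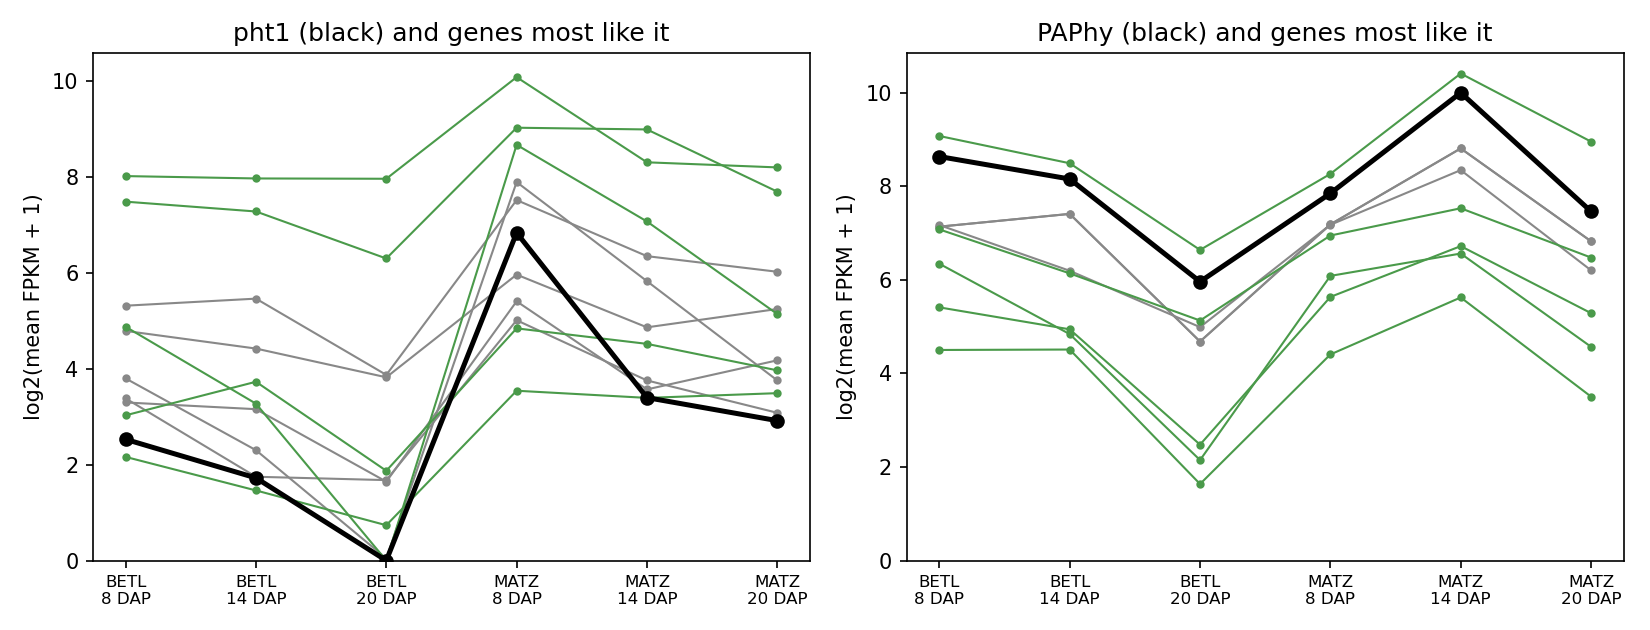
log2(mean FPKM + 1) in the 6 groups for pht1 (left, black) and PAPhy (right, black) with the genes whose pattern over the 12 libraries was most like theirs (green with a descriptive name, grey without). The genes like PAPhy share its peak in MATZ at 14 DAP and its low point in BETL at 20 DAP. Those like pht1 had their highest mean in MATZ at 8 DAP, though core3ft and GAPC were nearly as high in MATZ at 14 DAP. Selection by likeness favours both matches.

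No other pht gene of the list exceeded 8.08 FPKM in any library. Of 11 other genes of the phosphate transport and signalling list, 8 did not pass the filter, 6 of them at 0 in all 12 libraries. The 3 that passed were PHR1, named for the regulator of phosphate starvation responses in Arabidopsis, pht7 and pht13. PHR1 (GRMZM2G006477) was above 0 in all 12 libraries, from 5.62 to 50.7 FPKM. In MATZ at 8 DAP, where pht1 was at 142 and 83.4 FPKM, pht7 was at 8.08 and 2.43 and pht13 at 0 and 3.41. By limma with Benjamini-Hochberg adjustment, 0 of these 3 passed in any of the 9 comparisons (3 tissue comparisons, 4 age steps and 2 differences of steps), and 0 had an unadjusted p under 0.05. Of all tested genes 7.46%, 9.0% and 10.6% passed between tissues at the successive ages, 11.6% and 0.801% over the BETL steps, 5.58% and 1.47% over the MATZ steps, and 1.27% and 0.0372% for the differences of steps. The median log2 differences of the 3 genes between tissues were −1.07, −0.31 and 0, beside −0.40, 0 and 0 over all tested genes. Closely related pht genes can share reads, and how these were split is not stated.

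Around PAPhy, the genes of phytate synthesis and storage took different courses. The list held 6 other genes, of which 5 passed the filter, with median log2 differences between tissues of 1.74, 0.83 and 0.59 at the successive ages. The MRP-type transporter gene lpa1 (GRMZM5G820122), known as a carrier of phytate into the vacuole, was higher in MATZ at 14 DAP (117 ± 8.42 FPKM against 34.8 ± 2.61; log2 difference −1.72 ± 0.26 SE, limma adjusted p = 0.0041) and at 20 DAP (107 ± 1.95 against 24.2 ± 2.83; −2.10 ± 0.26, adjusted p = 0.000992). Another tested model of the list with the symbol lpa1, GRMZM2G155242, went the other way, with a higher mean in BETL at each age. Its means were 9.36 FPKM in BETL against 3.06 in MATZ at 14 DAP, and 8.88 against 5.39 at 20 DAP. That model was not called in any comparison, and elsewhere in the text lpa1 stands for GRMZM5G820122. At 14 DAP 1 of 5 was lower in BETL (4.38% of all tested genes were) and 1 of 5 higher (4.63%). The latter was mips2, named for the enzyme of the first step of inositol synthesis, at 11.5 and 10.1 FPKM in BETL and at 0 in both MATZ libraries (adjusted p = 0.0323). That call was lost in 8 of 20 alternatives, without either library of BETL or MATZ at 14 DAP or of BETL at 20 DAP among them (adjusted p up to 0.123). At 20 DAP lpa1 was the single gene called (6.38% of tested genes were lower in BETL). In BETL 1 of 5, lpa1, fell from 8 to 14 DAP (2.58% of tested genes did), which did not hold when 1 library was left out, for any library of BETL at 8 or 14 DAP or of MATZ at 14 or 20 DAP (adjusted p = 0.0444, up to 0.146). The phytase gene phyS11 (GRMZM2G140101) did not pass the filter, so that PAPhy was the single phytase gene of the list that did.

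Among the genes of nitrate and ammonium transport, the listed NRT2 genes were nearly undetected. NRT2 genes without a matched symbol were not looked at. The nitrate transporter genes nrt2 (GRMZM2G010280) and nrt2.2 did not pass the filter, and nrt2 was above 0 in BETL at 20 DAP alone, at 0.699 and 4.68 FPKM. NAR2.1 (GRMZM2G179294), the paralog of NAR2.2, was at 0 in both libraries of BETL at 8 and 14 DAP and of MATZ at 14 DAP. It stood at 10.2 and 6.94 FPKM in BETL at 20 DAP, an age at which NAR2.2 was listed at 0. In MATZ NAR2.1 was at 1.65 and 0 at 8 DAP and at 10.9 and 0 at 20 DAP. Reads of the 2 NAR2 genes may be shared in ways that are not stated.

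NRT1.2 (GRMZM5G811593), named for a low-affinity nitrate transporter of Arabidopsis, was above 65 FPKM in MATZ at all 3 ages. Its MATZ values were 107 and 94.6 FPKM at the first age, 75.8 and 119 at the second and 65.8 and 66.6 at the last. In BETL it was at 29.8 and 12.7, at 6.59 and 4.50, and at 1.09 and 0.937. It was the 1 of 2 tested list genes that was lower in BETL at each age, with log2 differences of −2.31 ± 0.47 (SE; limma adjusted p = 0.0164) at 8 DAP, −3.89 ± 0.47 (adjusted p = 0.00129) at 14 DAP and −5.06 ± 0.47 (adjusted p = 0.000178) at 20 DAP. Of all tested genes 5.31% were lower in BETL at 8 DAP, and the medians of the 2 list genes were −1.51, −1.95 and −1.81. The first of these calls did not hold without either MATZ library of that age or BETL 8 DAP replicate 2, and with quantile normalization (adjusted p up to 0.0742). The fall of NRT1.2 in BETL from 8 to 14 DAP (adjusted p = 0.048) was lost in 16 of 20 alternatives, among them without each library other than BETL 8 DAP replicate 2 (up to 0.207).

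Genes that assimilate nitrogen included several with more transcript in MATZ. Of 15, all of which passed the filter, 3 were lower in BETL at the first age, 5 at the second and 3 at the last (5.31%, 4.38% and 6.38% of tested genes were), and by limma 0 were higher in BETL at any age (2.16% of tested genes were at 8 DAP). The median log2 differences were −0.75, −0.20 and −0.97, beside −0.40, 0.00 and 0.00 over all tested genes. The glutamine synthetase gene gln2 (GRMZM2G024104) was lower in BETL at all 3 ages, at 133 ± 19.8 FPKM against 349 ± 70.6 in MATZ at 8 DAP (SD, n = 2; limma adjusted p = 0.00836, lost without MATZ 8 DAP replicate 2 or with no mean trend, up to 0.0968). The synthetase gene gln1-3 (GRMZM5G872068) was, like PAPhy, highest in MATZ at 14 DAP, with means over the 3 ages of 134 ± 17.8, 347 ± 92.0 and 61.8 ± 7.40 FPKM. It rose there from 8 to 14 DAP (log2 change 1.34 ± 0.29, adjusted p = 0.0275, lost without MATZ 8 DAP replicate 1 or MATZ 14 DAP replicate 2 and with median-of-ratios scaling or no mean trend, up to 0.155) and fell to 20 DAP (−2.45 ± 0.29, adjusted p = 0.00545). In BETL gln1-3 rose from 8 to 14 DAP (11.2 ± 1.03 to 74.3 ± 7.87; log2 change 2.63 ± 0.29, adjusted p = 0.000821), where PAPhy went from 397 to 285 FPKM. The background for these steps was 3.11% of tested genes higher and, in the later step, 0.698% lower (0.772% higher) in MATZ, and 9.06% higher in BETL. Tissue differences of the 8 to 14 DAP change passed for 0 of the 15 genes (3 had an unadjusted p under 0.05).

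**Figure D5:**
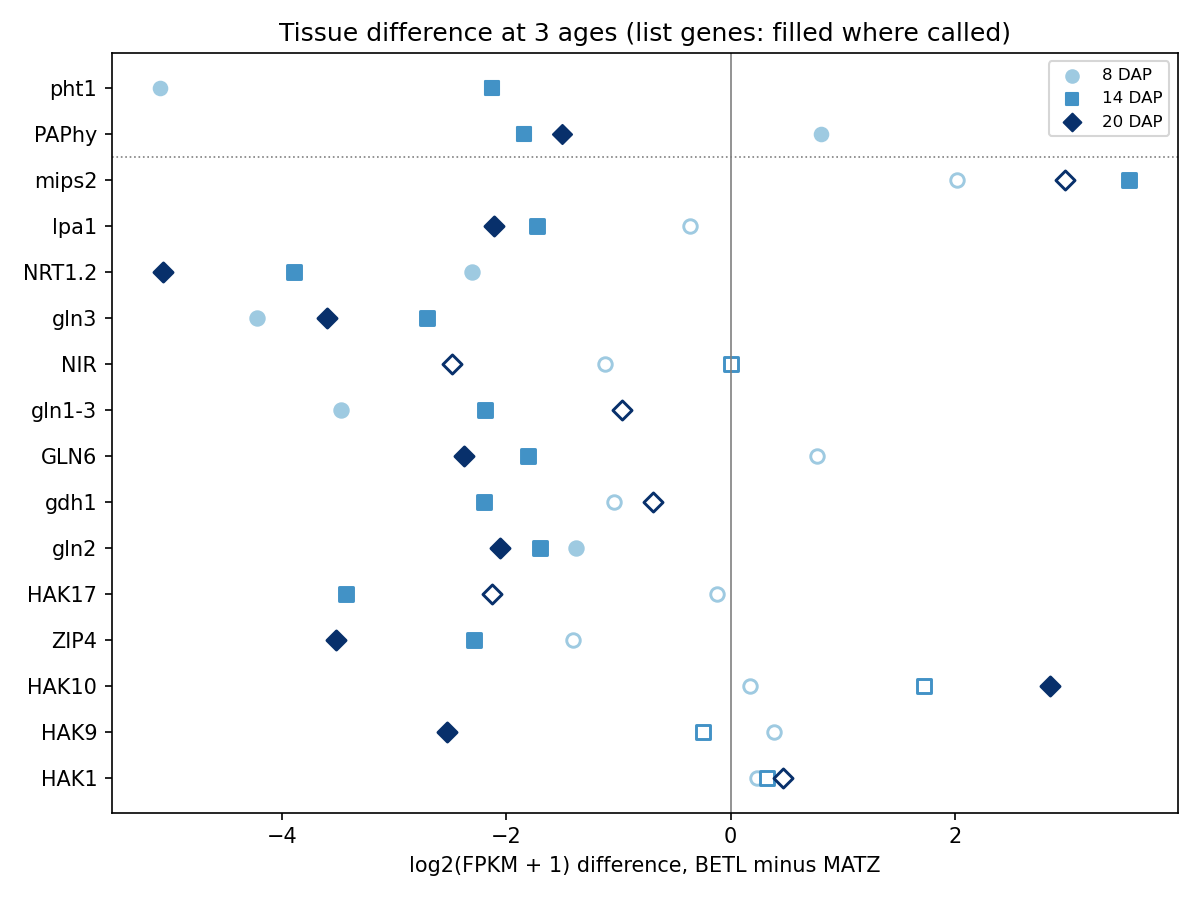
Difference in log2(FPKM + 1), BETL minus MATZ (x axis), at 8, 14 and 20 DAP for pht1 and PAPhy (top, described without a test) and for genes of the phosphorus, nitrogen and mineral lists; list genes are filled where limma adjusted p was under 0.05. PAPhy lies right of 0 at 8 DAP (0.81) and left of it later, whereas NRT1.2 lies at −2.31, −3.89 and −5.06; pht1 at 20 DAP and NAR2.2 are left out because a group was listed at 0.

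Carriers of other minerals gave a comparison of early and late transcripts. Of 30 listed genes 22 passed the filter, with median log2 differences between tissues of −0.19, 0 and 0.21. The potassium transporter genes HAK17 and HAK1 were, like pht1, highest at 8 DAP, but in both tissues: HAK17 was at 91.9 and 125 FPKM in BETL and at 136 and 100.2 in MATZ at that age. HAK17 fell in BETL from 8 to 14 DAP (log2 change −4.52 ± 0.63, limma adjusted p = 0.00287). Of the 22, 2 fell in BETL and 1 in MATZ over that step (2.58% of tested genes fell in BETL and 2.48% in MATZ). At 8 DAP 0 of the 22 passed between tissues by limma (2 had an unadjusted p under 0.05). At 14 DAP 2 were lower in BETL (4.38% of tested genes were), and at 20 DAP 2 were lower and 1 higher (6.38% and 4.23% of tested genes).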

How the data were processed

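RNA of 12 libraries, from 2 tissues at 3 ages with 2 libraries per group, was quantified by the authors, who deposited their FPKM values in a single table, per the file headers. Per the submitters' processing notes, the tools were TopHat2, Bowtie2 and Cufflinks, with no versions. Build, annotation and strand use are not given. Column totals ran from 731024 to 987477 FPKM, with 12609 to 21309 gene models above 0; fragment depth is unknown, which limits the low values.

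FPKM was taken as log2(FPKM + 1) and fitted with limma 3.58.1 in R 4.3.3: all 12 libraries, 6 group means, a mean trend, 9 comparisons, and Benjamini-Hochberg adjustment over the 24213 models reaching an FPKM of 1 in 2 or more libraries, called at adjusted p under 0.05. The fit was tested on simulated data. The members and the gene lists were chosen with earlier results of these data known, so the 3 genes carry no test. Lists were matched by RefSeq symbol (Zm-B73-REFERENCE-NAM-5.0, 18771 of 39423 IDs matched), and 3 genes were taken out as a wrong sense of the name after the values had been seen. Named list genes are those called in at least 1 comparison with a group mean of at least 10 FPKM, up to 8 a list; phosphate genes, nrt2 genes, NAR2.1, phyS11 and neighbours were named after their values were seen. Likeness is Pearson r over the 12 libraries, 5 genes overall and 5 with a descriptive symbol for each. The reading of value steps, from FPKM times genomic span in models spanning up to 3000 bp, was chosen after seeing the data. The 20 alternatives left out each library in turn, used the replicate number as a block, or dropped the mean trend. Others used quantile normalization, scaling by median of ratios, a pseudocount of 0.1 or 5, a filter at FPKM 5, or no filter. The block held a replicate term per age for tissue comparisons and differences of steps, and a single term for age steps. It left fewer residual degrees of freedom than the main fit. Searches of promoters and proteins were planned and not run, since no sequences were used here.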

Additional observations from a re-analysis of the deposited data

Results flagged for a closer look

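The change of PAPhy between 8 and 14 DAP went opposite ways in the tissues. In MATZ both libraries of 14 DAP (1000.4 and 1049 FPKM) lay above both of 8 DAP (267 and 192), whereas in BETL both libraries of 14 DAP (295 and 274) lay below both of 8 DAP (407 and 387). Over this step 40.8% of tested genes in MATZ and 46.7% in BETL had groups that did not overlap. The BETL change minus the MATZ change was −2.65 on the log2(FPKM + 1) scale, and between −2.89 and −2.41 over the 20 alternatives. The median of this difference over all tested genes was 0.54. The difference of PAPhy was not tested, because the gene was chosen with these values known.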

How the results depend on the processing

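No direction of a PAPhy difference turned in any of the 20 alternatives, and 9 of its values moved by more than the replicate spread, all under another scaling. With 1 library left out, the direction of pht1 turned in BETL from 8 to 14 DAP (between −2.15 and 1.24) and in MATZ from 14 to 20 DAP (between −1.29 and 0.07), where its groups overlap. Of the results of named list genes under alternatives, 567 kept their call, 133 lost it and 0 reversed. Counts of genes called were within 1.5 times the main count in 120 of 180 cases. Whether libraries with the same replicate number are paired is not known. Over all tested genes, replicate deviations of same-age groups correlated at −0.00453, −0.0168 and 0.0164. Many of these genes are low and noisy, so this cannot exclude a pairing by design. With the replicate block 875, 1056 and 1504 genes were called between tissues at 8, 14 and 20 DAP (1807, 2180 and 2567 without it), 108 in BETL from 14 to 20 DAP (194), and by limma 0 for either tissue difference of a change (307 and 9). BETL from 14 to 20 DAP gave 331 with pseudocount 0.1, 128 with FPKM of at least 5 and 48 with no mean trend. MATZ from 14 to 20 DAP gave 622 with pseudocount 5 (356). The tissue differences of the changes gave 952 and 116 with pseudocount 0.1, the first 164 with no mean trend and the second 2 with median-of-ratios scaling. With 1 library left out, where a lone library is assumed to vary like the other groups, the counts ran from 1029 to 1784, 966 to 2327 and 1104 to 2809 between tissues, from 1102 to 2837 and 71 to 361 for the BETL steps, from 516 to 1451 and 115 to 439 for the MATZ steps, and from 68 to 797 and 0 to 191 for the differences. Scaling moved the split of higher and lower calls: in BETL from 8 to 14 DAP it was 2194 and 624, but 1358 and 1013 with median-of-ratios scaling and 1007 and 987 with quantile normalization. Between tissues it went from 522 and 1285 to 756 and 969 with quantile normalization at 8 DAP, and from 1023 and 1544 to 1126 and 989 with median-of-ratios scaling at 20 DAP. In MATZ median-of-ratios scaling took it from 752 and 600 to 464 and 812 over the first step and from 187 and 169 to 107 and 145 over the second. Unknown depth limits NAR2.2 and the lower levels of pht1. The cause of these dependences was not tested.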
